A study of Macaca fascicularis with 6 samples.

Results

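The 54 genes described here serve protein synthesis inside mitochondria, out of 28164 gene rows in a count table of cynomolgus monkey (Macaca fascicularis) oocytes. They were chosen by symbol, with earlier results of these data known. The 28 rows named MRPS and a number are here called the small subunit genes, and the other 26 are for tRNA charging and translation factors. The charging set holds 16 mitochondrial aminoacyl-tRNA synthetases, whose symbols end in ARS2, the 3 subunits of the GatCAB amidotransferase (GATB, GATC and QRSL1), 6 translation factors (TUFM, TSFM, GFM1, GFM2, MTIF2 and MTIF3) and MTERF4. A row named LOC102131411, which a later RefSeq gene table calls HARS2, lies outside this choice. All 28 small subunit genes had enough counts to be tested, as had 25 of the 26 charging and factor genes. AARS2, the mitochondrial alanyl-tRNA synthetase, had 1 and 0 counts in the IVM MII libraries, 0 and 0 in IVO MII and 1 and 2 in GV, and was not tested.

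Mitochondria translate the few respiratory chain proteins that their own genome encodes, on a ribosome whose RNA is mitochondrial but whose proteins, synthetases and factors are all made from nuclear genes. The small subunit binds the messenger RNA and decodes it, the synthetases load each tRNA with its amino acid, and the factors start, extend and recycle the ribosome. The glutamine tRNA of mammalian mitochondria is charged in steps: EARS2 first puts glutamate on it, and GatCAB then converts that to glutamine. Oocytes carry a very large stock of mitochondria, which the embryo inherits, and a growing oocyte stores maternal RNA that is used or cleared during meiotic maturation.

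The 3 groups had 2 libraries each. IVM MII oocytes had been matured in culture to metaphase of the second meiotic division, IVO MII oocytes had matured to it in vivo, and GV oocytes were immature, with an intact germinal vesicle. All were wild type, untreated and stripped of surrounding cells; how many oocytes or animals each library pools is not stated, so p-values measure the spread between these libraries, which may be technical. Library totals ran from 27707021 to 35515139 counts. Levels are CPM, counts relative to the library total after scaling by TMM factors, and each pair of values below is replicate 1 and replicate 2. FPKM, the same value per kilobase of exon, is used where one gene's level is set beside another's. Fold changes are on the log2 scale with the standard error (SE) of the edgeR fit, and a gene is said to have risen, fallen, or been higher or lower where its adjusted p, over all 15815 genes tested, was under 0.05. Since cDNA was primed on poly(A) tails without an added RNA standard, each level is a share of its library's poly(A)-primed RNA. Less RNA of a gene and a shorter tail cannot be told apart, and amounts per oocyte are not known.

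Of 15 oocyte markers in the table, the summed level ran from 16000 to 18361 CPM in IVM MII, from 9229 to 11651 CPM in IVO MII and from 32274 to 38817 CPM in GV. The median was 228 and 261 CPM in IVM MII, 300 and 236 CPM in IVO MII and 376 and 244 CPM in GV. Of the 14 tested, 5 were higher and 1 lower in IVM MII than in IVO MII. These are 35.7% and 7.14%, beside 14.3% and 10.3% of all genes. Against GV 2 were higher and 7 lower in IVM MII (14.3% and 50.0%, beside 25.6% and 24.7%). In IVO MII 3 were higher and 9 lower (21.4% and 64.3%, beside 28.1% and 30.5%). The oocyte growth factor GDF9 averaged 4502 CPM in IVM MII, 2451 CPM in IVO MII and 13918 CPM in GV. The 13 markers of cumulus and granulosa cells summed to 79.4 to 80.8 CPM in IVM MII, 34.8 to 51.9 CPM in IVO MII and 31.7 to 38.4 CPM in GV. Of these 13, 8 had no count in either IVM MII library, and FOXL2, PTX3, INHA and STAR had none in any library. Of the 5 with enough counts for a test, 2 were higher and 0 lower in IVM MII than in IVO MII. The shares were 40.0% and 0%, beside 14.3% and 10.3% of all genes. Against GV 2 of these 5 were higher and 0 lower in IVM MII, with a median log2 fold change of 1.72. In IVO MII 1 was higher and 1 lower than in GV. The 9 markers of theca, stroma and endothelium summed to 151 to 159 CPM in IVM MII, 83.9 to 87.0 CPM in IVO MII and 327 to 386 CPM in GV. Their median was at most 0.648 CPM in any library, so a few genes carried these sums. The 7 blood and immune markers summed to 5.85 to 6.18 CPM in IVM MII, 4.38 to 7.34 CPM in IVO MII and 13.5 to 13.6 CPM in GV. The part of these cells in the results below was not tested.

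Levels within the small subunit set differed widely from gene to gene. MRPS14, a protein of the subunit's head, was the most abundant per exon length in each group, at a mean of 536 FPKM in IVM MII, 566 FPKM in IVO MII and 595 FPKM in GV. MRPS30 was the least, at 0.0811, 0.0228 and 0.160 FPKM in IVM MII, IVO MII and GV, and the next lowest were MRPS15 at 0.519 FPKM in IVM MII and 0.540 FPKM in IVO MII, and MRPS5 at 1.01 FPKM in GV. The median gene of the set stood at 9.43 FPKM in IVM MII, 6.68 FPKM in IVO MII and 28.6 FPKM in GV. MRPS14 alone made up 38.1% and 36.5% of the set's summed FPKM in IVM MII, 58.3% and 54.1% in IVO MII, and 34.3% and 33.3% in GV. Its own level moved little, at 376 and 403 CPM in IVM MII, 443 and 381 CPM in IVO MII and 434 and 430 CPM in GV, and no comparison passed the test. Its larger share in IVO MII came with a smaller sum of the other 27 genes, 436 and 445 FPKM in IVO MII beside 839 and 966 in IVM MII and 1143 and 1187 in GV.

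Among the charging and factor genes, MTIF3, the initiation factor that keeps the subunits of the ribosome apart, was the most abundant, at 108 FPKM in IVM MII, 152 FPKM in IVO MII and 333 FPKM in GV. The arginine and tyrosine enzymes RARS2 and YARS2 led the synthetases, at 36.8 and 70.3 FPKM in IVM MII, 46.2 and 23.3 FPKM in IVO MII, and 113 FPKM each in GV. The other end of the set was near silence. Besides AARS2, the synthetases CARS2, EARS2, VARS2, SARS2, PARS2, TARS2 and MARS2 each stayed under 1 FPKM in IVM MII and IVO MII. TUFM, the elongation factor that carries charged tRNA to the ribosome, stood at only 0.960 FPKM in IVM MII, 0.848 FPKM in IVO MII and 5.08 FPKM in GV, while its partner TSFM, which recharges TUFM with GTP, stood at 71.8, 34.0 and 34.4 FPKM in IVM MII, IVO MII and GV. Reads were aligned with a program that does not split them over introns, so levels of genes with many short exons may be understated; how far this goes was not tested.

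**Figure D1:**
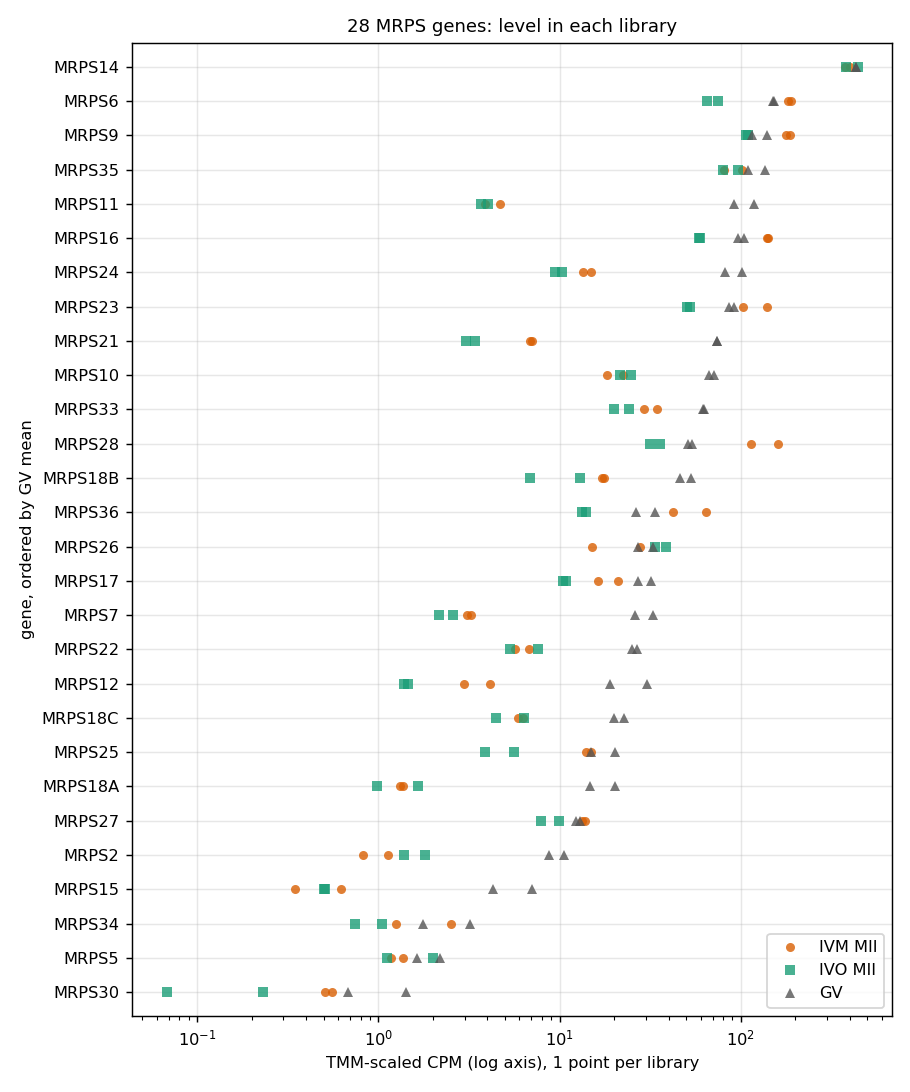
Level of each of the 28 MRPS genes in each library, in TMM-scaled CPM on a log axis, with genes ordered from top to bottom by falling GV mean; circles are IVM MII, squares IVO MII and triangles GV libraries. MRPS14 stays between 376 and 443 CPM in all libraries, while MRPS11, MRPS21, MRPS24 and MRPS7 lie far to the right in GV.

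**Figure D2:**
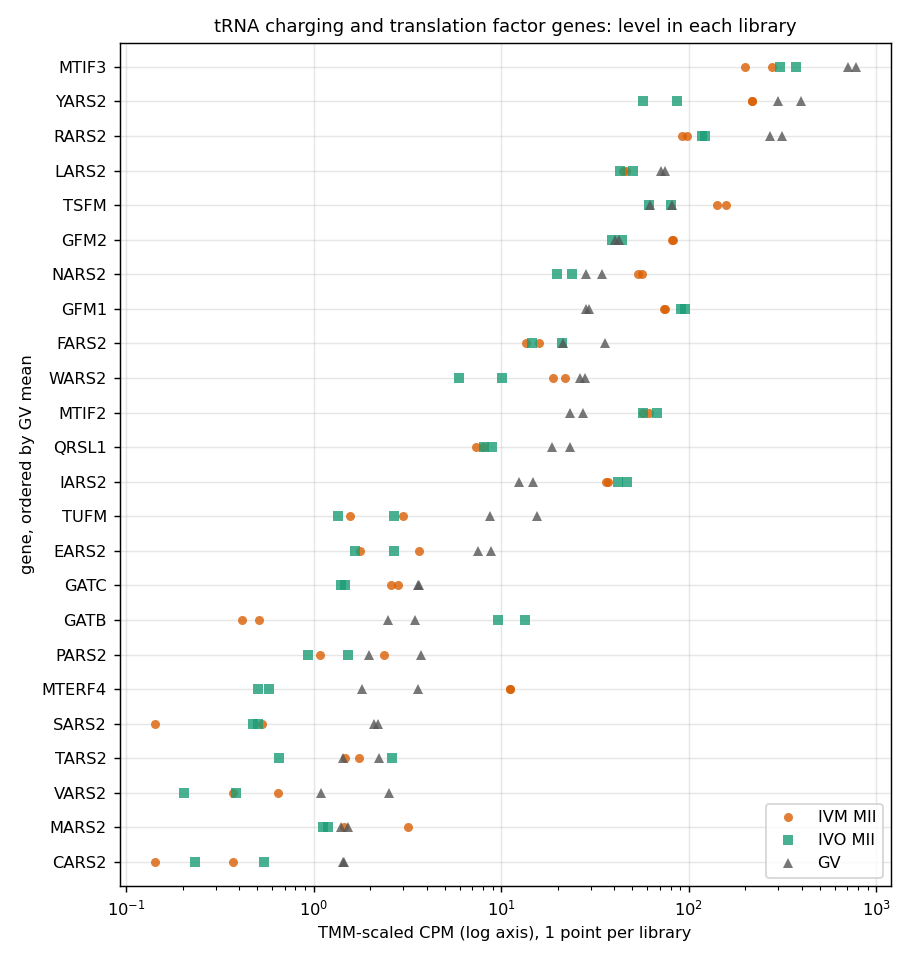
Level of 24 of the 25 tested charging and translation factor genes in each library, drawn as in the plot of MRPS levels. MTERF4 is separated to the right in IVM MII and GATB to the right in IVO MII, while IARS2, GFM1 and MTIF2 are lowest in GV.

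IVM MII was set against IVO MII to compare oocytes matured in culture with those matured in vivo. Of the 28 small subunit genes, 10 were higher in IVM MII and 0 lower, 35.7% and 0% beside 14.3% and 10.3% of all genes tested, of which 24.6% were called in either direction. The genes that were higher were MRPS28, MRPS36, MRPS25, MRPS6, MRPS12, MRPS16, MRPS23, MRPS21, MRPS17 and MRPS9. Unadjusted, 15 had a p under 0.05 upward and 1 downward, and DESeq2 called 10 higher and 1, MRPS26, lower. The median log2 fold change was 0.57 for the set and 0.02 for all genes, and 21 of the 28 values were above 0. Scaling by library totals moved the median of all genes to 0.24 and that of the set to 0.79. With the trend over exon length removed these medians were -0.07 and 0.39.

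MRPS28, counterpart of the bacterial protein S1, had 114 and 160 CPM in IVM MII, against 31.6 and 35.9 CPM in IVO MII, 4.07-fold higher (log2 fold change 2.02 ± 0.24 SE, adjusted p = 0.000166). MRPS36 had 42.2 and 64.2 CPM in IVM MII, against 14.1 and 13.3 CPM in IVO MII, 3.88-fold higher (1.96 ± 0.26, adjusted p = 0.000403). Despite its name MRPS36 is now known as a subunit of the oxoglutarate dehydrogenase complex of the tricarboxylic acid cycle. Both genes had every IVM MII library above every IVO MII library, with IVM MII replicate 2 the highest; the groups did not overlap for 63.0% of all genes tested.

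MRPS25, a protein found only in mitochondrial ribosomes, had 14.0 and 14.9 CPM in IVM MII, against 3.86 and 5.60 CPM in IVO MII (1.61 ± 0.29, adjusted p = 0.00214). MRPS6, counterpart of bacterial S6, had 183 and 189 CPM in IVM MII, against 65.2 and 74.9 CPM in IVO MII (1.41 ± 0.21, adjusted p = 0.000754). MRPS23, also specific to mitochondria, had 102 and 139 CPM in IVM MII, against 50.7 and 52.5 CPM in IVO MII (1.22 ± 0.23, adjusted p = 0.00255). In each of these the groups did not overlap, as for 63.0% of all genes tested. MRPS25 lies on chromosome 11 of the macFas5 genome in the file and on another chromosome in a later assembly, the only member of 52 matched for which the chromosomes differed.

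MRPS16, counterpart of bacterial S16, had 141 and 140 CPM in IVM MII, against 59.5 and 58.5 CPM in IVO MII (1.25 ± 0.21, adjusted p = 0.00136). It shares 25.6% of its exon bases, on the same strand, with DNAJC9, which averaged 455 CPM in IVM MII and 214 CPM in IVO MII (1.09, adjusted p = 0.0182); how reads divide between the 2 genes was not tested. MRPS21, counterpart of bacterial S21, had 6.87 and 7.02 CPM in IVM MII, against 3.40 and 3.06 CPM in IVO MII (1.11 ± 0.23, adjusted p = 0.00536).

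The remaining calls were less firm. MRPS12, a protein of the decoding centre, had 2.99 and 4.15 CPM in IVM MII, against 1.47 and 1.39 CPM in IVO MII (1.31 ± 0.34, adjusted p = 0.0150), and without IVM MII replicate 2 its value was 1.06 with an adjusted p of 0.100. MRPS17, counterpart of bacterial S17, had 16.3 and 21.0 CPM in IVM MII, against 10.5 and 10.8 CPM in IVO MII (0.81 ± 0.24, adjusted p = 0.0313). MRPS9, counterpart of bacterial S9, had 178 and 186 CPM in IVM MII, against 107 and 109 CPM in IVO MII (0.75 ± 0.21, adjusted p = 0.0243). The groups did not overlap for either gene, nor for 63.0% of all genes tested. With the trend over exon length removed, MRPS17 (0.65, adjusted p = 0.0687) and MRPS9 (0.58, adjusted p = 0.0729) lost their calls. Leaving out single libraries removed both calls as well. MRPS17 lost its call without IVM MII replicate 2 (0.62, adjusted p = 0.179), IVO MII replicate 1 (0.78, adjusted p = 0.0987) or IVO MII replicate 2 (0.84, adjusted p = 0.0658). MRPS9 lost its call without IVM MII replicate 1 (0.81), IVM MII replicate 2 (0.72), IVO MII replicate 1 (0.73) or IVO MII replicate 2 (0.78), with adjusted p of 0.0682 to 0.107.

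Going the other way, MRPS26, a mitochondria-specific protein, had 27.9 and 15.1 CPM in IVM MII, against 38.7 and 33.8 CPM in IVO MII (-0.75 ± 0.29), and missed the threshold at an adjusted p of 0.0764. Its value was -1.24 with an adjusted p of 0.0217 without IVM MII replicate 1. Of the 3 MRPS18 genes, which descend from one ancestor, MRPS18B was at 17.6 and 17.2 CPM in IVM MII and 6.84 and 12.9 CPM in IVO MII (0.81 ± 0.29, adjusted p = 0.0605), and MRPS18C (0.17 ± 0.27) and MRPS18A (0.03 ± 0.36) did not pass. MRPS18A and MRPS30 keep small subunit names but sit in the large subunit of the human mitochondrial ribosome. Without MRPS18A, MRPS30 and MRPS36, 9 of 25 genes were higher and 0 lower. Of the 16 counterparts of bacterial proteins 7 were higher (43.8%), and of the 9 proteins specific to mitochondria 2 (22.2%), beside 14.3% of all genes.

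Of the 25 charging and factor genes tested, 6 were higher in IVM MII and 1 lower, 24.0% and 4.00% beside the background of 14.3% and 10.3%. The median log2 fold change was -0.03, and it was 0.41 without IVO MII replicate 2. The higher genes were MTERF4, 3 synthetases (YARS2, WARS2 and NARS2) and 2 factors (TSFM and GFM2), and the lower gene was GATB. For the other 18 genes the test did not pass, with values from -0.58 (CARS2) to 1.01 (MARS2). The synthetases as a class had 3 of 15 higher and 0 lower, with 4 upward and 0 downward at an unadjusted p under 0.05, and 3 higher and 0 lower by DESeq2.

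YARS2, the tyrosine enzyme, had 216 and 217 CPM in IVM MII, against 56.8 and 86.7 CPM in IVO MII, 3.02-fold higher (1.59 ± 0.26, adjusted p = 0.00136). WARS2, the tryptophan enzyme, had 18.9 and 21.9 CPM in IVM MII, against 5.95 and 10.2 CPM in IVO MII (1.34 ± 0.28, adjusted p = 0.00558). NARS2, the asparagine enzyme, had 53.5 and 56.1 CPM in IVM MII, against 19.8 and 23.9 CPM in IVO MII (1.33 ± 0.23, adjusted p = 0.00166). For all 3 the IVM MII libraries lay above both IVO MII libraries; the groups of 63.0% of all genes did not overlap. TSFM, the exchange factor of TUFM, had 142 and 158 CPM in IVM MII, against 61.6 and 80.5 CPM in IVO MII (1.08 ± 0.24, adjusted p = 0.00684). GFM2, which splits the ribosome after termination, had 82.7 and 81.8 CPM in IVM MII, against 38.9 and 44.0 CPM in IVO MII (0.99 ± 0.21, adjusted p = 0.00556). TSFM missed the threshold without IVM MII replicate 2 (1.00, adjusted p = 0.0524). The related factor GFM1, which moves the ribosome along the message, was at 74.9 and 73.7 CPM in IVM MII and 94.9 and 90.6 CPM in IVO MII and did not pass (-0.32 ± 0.20).

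Counts were made without regard to strand, and 15 of the 54 genes share exon bases with another gene, 8 of them over more than 10% of their exon length. Among the charging genes higher in IVM MII, YARS2 shares 20.3% of its exon bases with DNM1L, GFM2 12.9% with NSA2, TSFM 7.33% with AVIL, WARS2 0.767% with LOC102140421 and MTERF4 0.628% with SNED1, each on the opposite strand. None of the 3 partners with enough counts for a test was higher in IVM MII: DNM1L was at -0.33, NSA2 at 0.30 and SNED1 at -0.53 on the log2 scale, with adjusted p of 0.281 to 0.474. AVIL and LOC102140421 were not tested: AVIL averaged 0.0942 CPM in IVM MII and 0.136 CPM in IVO MII, and LOC102140421 averaged 0.0142 and 0.133 CPM in IVM MII and IVO MII. Of genes with no shared exon base, 7 of 24 small subunit genes were higher and 0 lower, and 1 of 14 charging and factor genes, NARS2, was higher and 1, GATB, lower. These are 29.2% and 0% of the small subunit genes and 7.14% and 7.14% of the charging and factor genes, beside 14.3% and 10.3% of all genes, so the share of charging and factor genes higher in IVM MII was above that of all genes with the overlapping genes counted and below it without them.

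**Figure D3:**
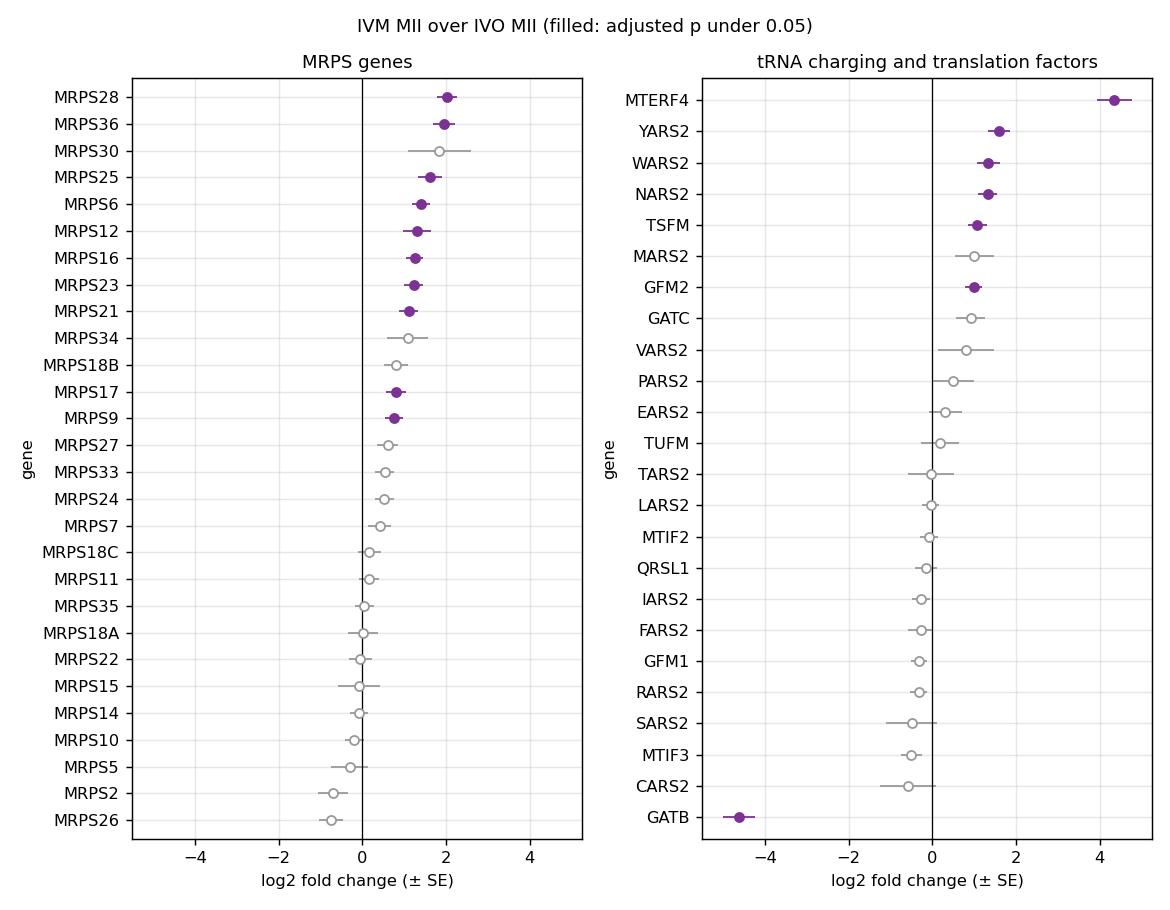
Log2 fold change of IVM MII over IVO MII for the 28 MRPS genes (left) and 24 of the 25 tested charging and factor genes (right), with the standard error of the fit as bars; filled points had an adjusted p under 0.05. The 10 filled points on the left are all above 0, and on the right MTERF4 at 4.35 and GATB at -4.63 stand far from the others.

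MTERF4 and GATB had the largest values in this comparison among the 53 members tested, in opposite directions. MTERF4 guides the RNA methyltransferase NSUN4 to the assembling mitochondrial ribosome (macFas5 chromosome 12, 131028568 to 131043836, minus strand). It had 11.1 and 11.1 CPM in IVM MII, 0.502 and 0.577 CPM in IVO MII and 1.80 and 3.62 CPM in GV. IVM MII was thus 20.6-fold higher than IVO MII (4.35 ± 0.42, adjusted p = 5.55e-05). Against GV, MTERF4 was higher in IVM MII (2.03 ± 0.36, adjusted p = 0.000812) and lower in IVO MII (-2.32 ± 0.42, adjusted p = 0.000606). The GV libraries differed from each other, and without GV replicate 2 these values were 2.62 and -1.73. The IVO MII level rested on 13 and 17 counts.

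GATB is the subunit of GatCAB that holds the tRNA. It had 0.417 and 0.511 CPM in IVM MII, 9.58 and 13.4 CPM in IVO MII and 2.48 and 3.48 CPM in GV. IVM MII was 24.8-fold lower than IVO MII (-4.63 ± 0.39, adjusted p = 2.33e-05), and rested on 18 and 18 counts. GATB was lower in IVM MII than in GV (-2.68 ± 0.38, adjusted p = 0.000192) and higher in IVO MII than in GV (1.95 ± 0.33, adjusted p = 0.000404). Both calls against GV share the same GV libraries. The annotation places 9 of its 10 exons on chromosome 5 (150919524 to 150986776) and 1 exon, 26.5% of its exon bases, on an unplaced scaffold, and counts by exon were not analysed here.

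The partners of GATB did not follow it. QRSL1, the subunit that frees ammonia from glutamine, had 7.31 and 8.01 CPM in IVM MII, 8.96 and 8.08 CPM in IVO MII and 18.8 and 23.2 CPM in GV. GATC, the smallest subunit, had 2.80 and 2.58 CPM in IVM MII, 1.39 and 1.46 CPM in IVO MII and 3.61 and 3.65 CPM in GV. Neither passed between IVM MII and IVO MII (-0.15 ± 0.25 for QRSL1 and 0.92 ± 0.35, adjusted p = 0.0795, for GATC). GATC shares 12.2% of its exon bases, on the opposite strand, with SRSF9. SRSF9 averaged 2.93 CPM in IVM MII, 2.20 CPM in IVO MII and 5.41 CPM in GV. It did not pass between IVM MII and IVO MII (0.42), and was lower in IVO MII than in GV (-1.30), as was GATC (-1.35). EARS2, which supplies the substrate of GatCAB, was at 3.63 and 1.76 CPM in IVM MII and 1.66 and 2.68 CPM in IVO MII, and the groups overlapped. EARS2 shares 4.30% of its exon bases, on the opposite strand, with UBFD1. That gene averaged 252 CPM in IVM MII and 399 CPM in IVO MII (-0.66, adjusted p = 0.0478). How reads divide between GATC and SRSF9, or EARS2 and UBFD1, was not tested.

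MRPS28 and MRPS36 also had calls of opposite sign against the shared GV libraries. MRPS28 (chromosome 8, 81060053 to 81161386) had 54.1 and 51.4 CPM in GV, and was higher than that in IVM MII (1.38 ± 0.23, adjusted p = 0.000597) and lower in IVO MII (-0.64 ± 0.23, adjusted p = 0.0308). The fall in IVO MII did not hold: it lost its call without either GV library or either IVO MII library (-0.54 to -0.73, adjusted p of 0.0556 to 0.142), and with the trend over gene length removed the value was 0.21. MRPS36 had 33.8 and 26.4 CPM in GV, and was higher in IVM MII (0.82 ± 0.26, adjusted p = 0.0189) and lower in IVO MII (-1.14 ± 0.26, adjusted p = 0.00278). Its rise in IVM MII lost its call without GV replicate 2 (0.66, adjusted p = 0.136) or IVM MII replicate 2 (0.50, adjusted p = 0.181), and its fall in IVO MII lost its call with the length trend removed (-0.43, adjusted p = 0.178).

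**Figure D4:**
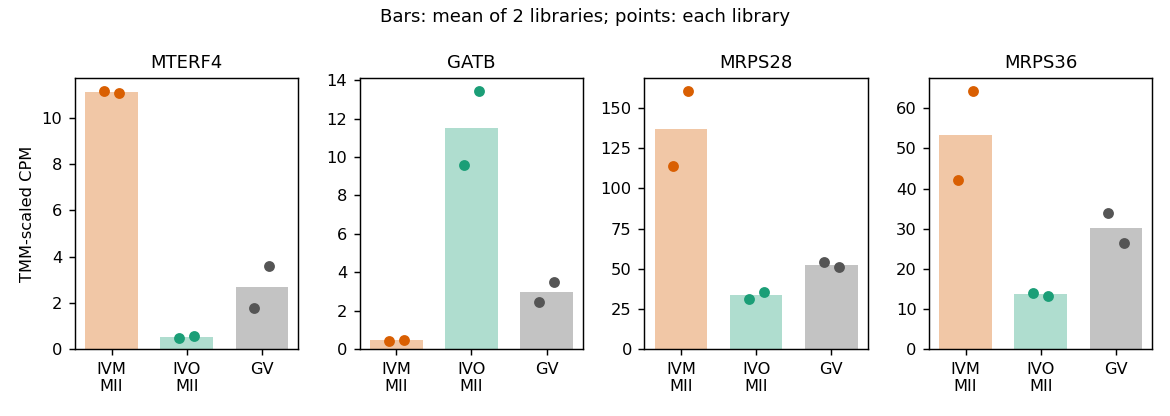
TMM-scaled CPM of the 4 members with calls of opposite sign in the MII groups against GV; bars are means of 2 libraries, points are libraries, and each panel has its own axis from 0. MTERF4, MRPS28 and MRPS36 are highest in IVM MII and lowest in IVO MII, and GATB is highest in IVO MII and lowest in IVM MII.

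IVM MII was set against GV to compare oocytes matured in culture with immature ones. The labels pair no libraries, so rises and falls here are differences between separate groups. Among small subunit genes 14 of 28 fell and 2 rose in IVM MII, 50.0% and 7.14% beside 24.7% and 25.6% of all genes, of which 50.3% were called in either direction. The median log2 fold change was -0.81, against 0.06 for all genes. Scaling by library totals moved the median of all genes to 0.35 and that of the set to -0.52, and gave 13 that fell and 6 that rose. With the length trend removed 12 fell and 6 rose, and the set's median was -0.41. The 4 genes added by both were MRPS6, MRPS9, MRPS16 and MRPS23, all abundant in GV. MRPS28 and MRPS36, described above, were the 2 that rose.

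MRPS11, which lines the platform where messenger and tRNA meet, fell the most, to 4.67 and 3.89 CPM in IVM MII, against 91.3 and 118 CPM in GV, 24.5-fold lower (-4.61 ± 0.27, adjusted p = 9.56e-07). MRPS21 fell to 6.87 and 7.02 CPM in IVM MII, against 73.8 and 73.5 CPM in GV (-3.41 ± 0.23, adjusted p = 1.57e-06). MRPS24, counterpart of the bacterial S3 of the messenger entry channel, fell to 14.9 and 13.5 CPM in IVM MII, against 82.0 and 101 CPM in GV (-2.69 ± 0.23, adjusted p = 6.68e-06). The groups did not overlap for any of these 3, nor for 77.8% of all genes tested. MRPS7, which seeds assembly of the head, fell to 3.08 and 3.27 CPM in IVM MII, against 26.1 and 32.6 CPM in GV (-3.21 ± 0.28, adjusted p = 6.68e-06). It shares 12.7% of its exon bases with GGA3 and 10.6% with MIF4GD, both on the opposite strand. MIF4GD averaged 18.5 CPM in IVM MII and 62.8 CPM in GV (-1.77, adjusted p = 0.000535), and GGA3 did not pass (-0.17). How reads divide between MRPS7 and these genes was not tested. MRPS18A fell to 1.32 and 1.36 CPM in IVM MII, against 14.7 and 20.3 CPM in GV (-3.70 ± 0.35, adjusted p = 1.21e-05). MRPS2, counterpart of bacterial S2, fell to 1.13 and 0.824 CPM in IVM MII, against 8.78 and 10.6 CPM in GV (-3.30 ± 0.36, adjusted p = 3.05e-05). The other 8 that fell, MRPS10, MRPS12, MRPS15, MRPS17, MRPS18B, MRPS18C, MRPS22 and MRPS33, had values from -3.55 (MRPS15) to -0.66 (MRPS17). MRPS17 lost its call without GV replicate 1 (-0.76), GV replicate 2 (-0.53) or IVM MII replicate 1 (-0.45), with adjusted p of 0.0734 to 0.245. MRPS17 (-0.38) and MRPS33 (-0.44) also lost their calls with the length trend removed.

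Of the 16 counterparts of bacterial proteins 10 fell and 1 rose, 62.5% and 6.25% beside 24.7% and 25.6% of all genes. Of the 9 proteins specific to mitochondria 3 fell and 0 rose, 33.3% and 0%, where the share that fell was near that of all genes. The medians of the 2 classes were -1.79 and -0.43, and the difference between them was not tested. Spearman's rho between fold change and exon length was 0.12 over the 28 genes of the set and 0.22 over all genes tested; genes of the same libraries are not independent.

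Among charging and factor genes 12 of 25 fell and 8 rose in IVM MII, 48.0% and 32.0% beside 24.7% and 25.6% of all genes. The median was -0.68, and it was -0.42 without GV replicate 2 and -0.38 with library totals. The translation factors divided, with 4 of 6 higher and 2 lower. The synthetases had 3 of 15 higher, IARS2 and NARS2 among them, and 8 lower.

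GFM1 rose to 74.9 and 73.7 CPM in IVM MII, against 29.3 and 28.4 CPM in GV (1.36 ± 0.21, adjusted p = 0.000297). MTIF2, which brings the initiator tRNA to the ribosome, rose to 61.3 and 57.1 CPM in IVM MII, against 23.3 and 27.3 CPM in GV (1.23 ± 0.22, adjusted p = 0.000854). IARS2, the isoleucine enzyme, rose to 36.2 and 36.9 CPM in IVM MII, against 14.8 and 12.4 CPM in GV (1.42 ± 0.22, adjusted p = 0.000379). These 3 rose by similar amounts, 2.34-fold to 2.68-fold. TSFM had 62.1 and 81.5 CPM and GFM2 40.5 and 42.6 CPM in GV, and both were higher in IVM MII (1.06 ± 0.24, adjusted p = 0.00308, and 0.99 ± 0.21, adjusted p = 0.00233). NARS2 lost its rise of 0.80 without GV replicate 1 (0.68, adjusted p = 0.0902).

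RARS2, the arginine enzyme, fell to 92.6 and 98.0 CPM in IVM MII, against 313 and 270 CPM in GV (-1.61 ± 0.21, adjusted p = 0.000127). MTIF3 fell to 200 and 278 CPM in IVM MII, against 707 and 776 CPM in GV (-1.63 ± 0.25, adjusted p = 0.000338). TUFM fell to 3.01 and 1.56 CPM in IVM MII, against 8.68 and 15.5 CPM in GV (-2.40 ± 0.44, adjusted p = 0.000988). So the initiation factors MTIF2 and MTIF3 went opposite ways, as did the elongation factors TSFM and TUFM. QRSL1 fell as well (-1.45 ± 0.25, adjusted p = 0.000755). SARS2, the serine enzyme, fell to 0.532 and 0.142 CPM in IVM MII, against 2.11 and 2.20 CPM in GV (-2.63 ± 0.58, adjusted p = 0.00296), and was at -3.85 and -1.99 without IVM MII replicates 1 and 2. It shares 10.9% of its exon bases, on the opposite strand, with the more abundant MRPS12, which averaged 3.57 CPM in IVM MII and 24.6 CPM in GV (-2.79 ± 0.32, adjusted p = 4.66e-05), and how reads divide between them was not tested.

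The remaining 6 synthetases with a call had falls of -0.68 to -2.45, and single libraries decided each of them. CARS2 (-1.93) and EARS2 (-1.15) lost their calls without IVM MII replicate 2, with adjusted p of 0.0519 and 0.0531, and CARS2 was at -3.27 without IVM MII replicate 1. VARS2 did so without GV replicate 2 (-1.08) or IVM MII replicate 2 (-1.46), FARS2 without GV replicate 2 (-0.53) or IVM MII replicate 1 (-1.04) or 2 (-0.84). YARS2 lost its call without GV replicate 2 (-0.46) or IVM MII replicate 1 (-0.65) or 2 (-0.68), and LARS2 without any GV or IVM MII library (-0.63 to -0.71). Without IVM MII replicate 2 fewer charging and factor genes fell. With library totals 8 fell in place of 12, as LARS2, VARS2, YARS2 and FARS2 lost their calls. That scaling also moved the median of all genes from 0.06 to 0.35.

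IVO MII was set against the same GV libraries to compare oocytes matured in vivo with immature ones. Of the 28 small subunit genes 22 fell and 0 rose, 78.6% and 0% beside 30.5% and 28.1% of all genes, of which 58.5% were called in either direction; 0 had an unadjusted p under 0.05 upward, and DESeq2 also called 22 and 0. The median was -1.54, against -0.07 for all genes. The 6 genes without a call were MRPS5, MRPS9, MRPS14, MRPS26, MRPS27 and MRPS35. Longer genes had higher fold changes over all genes tested (Spearman's rho with exon length 0.26; within the MRPS set 0.10). With that trend removed 17 fell and 2, MRPS14 (0.83) and MRPS26 (1.06), rose, and the median was -1.05.

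MRPS11 fell to 4.02 and 3.67 CPM in IVO MII, against 91.3 and 118 CPM in GV, 27.3-fold lower (-4.77 ± 0.27, adjusted p = 5.47e-07). MRPS21 fell to 3.40 and 3.06 CPM in IVO MII, against 73.8 and 73.5 CPM in GV, 22.8-fold lower (-4.51 ± 0.25, adjusted p = 5.47e-07). MRPS12 fell to 1.47 and 1.39 CPM in IVO MII, against 19.0 and 30.3 CPM in GV, 17.2-fold lower (-4.10 ± 0.35, adjusted p = 4.01e-06). All 3 ended below 5 CPM. MRPS18A fell to 1.66 and 0.985 CPM in IVO MII, against 14.7 and 20.3 CPM in GV (-3.73 ± 0.36, adjusted p = 8.62e-06). MRPS7 fell to 2.59 and 2.17 CPM in IVO MII, against 26.1 and 32.6 CPM in GV (-3.62 ± 0.29, adjusted p = 2.44e-06). MRPS24 fell to 9.39 and 10.3 CPM in IVO MII, against 82.0 and 101 CPM in GV (-3.22 ± 0.24, adjusted p = 1.60e-06). With the length trend removed these 6 values were -4.13, -3.59, -3.43, -3.02, -2.93 and -2.32, and each kept its call. Of the genes that share exon bases with MRPS7, MIF4GD was also lower in IVO MII (-1.59, adjusted p = 0.000653) and GGA3 did not pass (-0.46).

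The other 16 that fell ranged from -3.48 (MRPS15) to -0.64 (MRPS28). MRPS6, MRPS16 and MRPS23, which stood at 152, 101 and 89.1 CPM in GV and did not pass in IVM MII (0.29 ± 0.21, 0.48 ± 0.20 and 0.44 ± 0.22), were lower in IVO MII than in GV (-1.12 ± 0.21, -0.77 ± 0.20 and -0.79 ± 0.22). With the length trend removed the values of MRPS6 and MRPS23 were -0.22 and 0.06, without a call. MRPS34, a mitochondria-specific protein, lost its call without GV replicate 2 (-0.98) or IVO MII replicate 2 (-1.24), and with the length trend removed (-0.65). MRPS30 lost its call without GV replicate 2 (-2.18, adjusted p = 0.0931) and was at -3.87 and -2.15 without IVO MII replicates 1 and 2; it had 6 and 2 counts in IVO MII, so no fold is given.

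Among charging and factor genes 13 of 25 fell and 5 rose in IVO MII, 52.0% and 20.0% beside 30.5% and 28.1% of all genes, with a median of -1.13 that was -0.68 without GV replicate 2. GATB, GFM1, IARS2 and MTIF2 were among the genes that rose, and each of these kept its call in every alternative run. GFM1 rose to 94.9 and 90.6 CPM in IVO MII, against 29.3 and 28.4 CPM in GV (1.68 ± 0.21, adjusted p = 4.90e-05). IARS2 rose to 46.9 and 41.8 CPM in IVO MII, against 14.8 and 12.4 CPM in GV (1.70 ± 0.23, adjusted p = 7.44e-05). MTIF2 rose to 57.3 and 67.5 CPM in IVO MII, against 23.3 and 27.3 CPM in GV (1.30 ± 0.22, adjusted p = 0.000374). In each of these 3 both IVO MII libraries stood above both GV libraries; the groups did not overlap for 80.2% of all genes tested.

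YARS2 fell to 56.8 and 86.7 CPM in IVO MII, against 299 and 399 CPM in GV, 4.86-fold lower (-2.28 ± 0.27, adjusted p = 3.52e-05). WARS2 fell to 5.95 and 10.2 CPM in IVO MII, against 26.2 and 28.1 CPM in GV (-1.75 ± 0.29, adjusted p = 0.000297). RARS2 fell to 121 and 118 CPM in IVO MII, against 313 and 270 CPM in GV (-1.28 ± 0.21, adjusted p = 0.000332). The GV libraries stood above both IVO MII libraries in all 3, in a comparison where the groups of 80.2% of all genes did not overlap. TUFM fell to 1.35 and 2.68 CPM in IVO MII, against 8.68 and 15.5 CPM in GV (-2.57 ± 0.45, adjusted p = 0.000469), and QRSL1 also fell (-1.30 ± 0.25, adjusted p = 0.00103). TSFM and GFM2, higher in IVM MII, stood in IVO MII at the GV level, with values of -0.02 ± 0.23 and -0.0037 ± 0.21, and the groups overlapped. Besides MTERF4, the other falls ran from -2.62 (VARS2) to -0.64 (LARS2). CARS2 lost its call without GV replicate 1 (-1.88) or 2 (-1.86) or IVO MII replicate 1 (-1.39) and was at -2.60 without IVO MII replicate 2; LARS2 lost its call without GV replicate 1 (-0.60) or 2 (-0.67) or IVO MII replicate 2 (-0.51), and VARS2 without GV replicate 2 (-1.88).

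**Figure D5:**
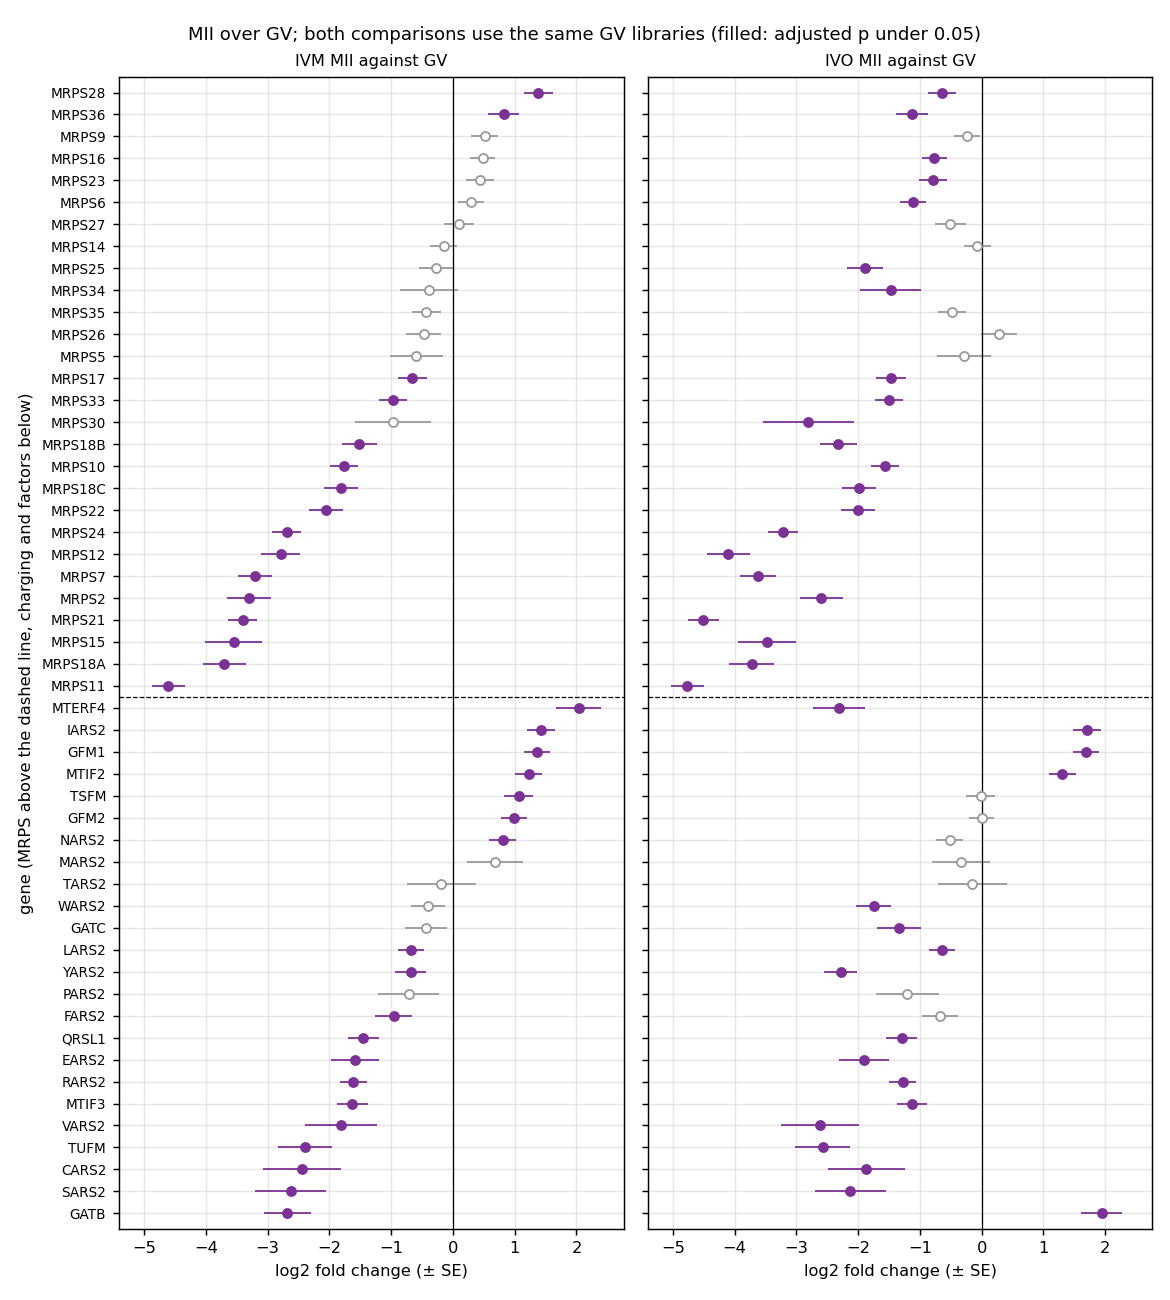
Log2 fold change against GV of IVM MII (left) and IVO MII (right) for 52 of the 53 tested members, with the standard error of the fit as bars. Filled points had an adjusted p under 0.05, and both panels rest on the same 2 GV libraries. MRPS genes are above the dashed line and charging and factor genes below it, each set in the order of its IVM MII values. MRPS11 is the leftmost point of both panels, at -4.61 and -4.77, and IARS2, GFM1 and MTIF2 are right of 0 in both.

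Other genes of the pathway were taken as lists, to be read beside the shares of all genes called higher and lower: 14.3% and 10.3% for IVM MII over IVO MII, 25.6% and 24.7% for IVM MII over GV, and 28.1% and 30.5% for IVO MII over GV. The 4 small subunit proteins without an MRPS name had 0 genes higher or lower between IVM MII and IVO MII, with 2 upward at an unadjusted p under 0.05 and 0 calls by DESeq2. Against GV, 3 of the 4 fell in IVM MII and 3 in IVO MII; CHCHD1 was at -2.06 and -2.84 and DAP3, also known for its part in cell death, at -1.39 and -1.73. Of 8 factors that modify or assemble the small subunit, 0 were higher and 1 lower in IVM MII than in IVO MII. That gene was METTL17, which helps the subunit mature, at 31.6 and 25.1 CPM in IVM MII, 55.6 and 52.0 CPM in IVO MII and 11.4 and 10.7 CPM in GV (-0.92 ± 0.22 for IVM MII over IVO MII, adjusted p = 0.0112). Against GV 2 rose and 2 fell in IVM MII, and 2 rose and 3 fell in IVO MII, and ERAL1, the GTPase that binds the subunit's RNA, fell in both (-2.57 and -2.48). Of the genes of release, recycling and translation control, 2 of 8 were higher in IVM MII than in IVO MII and 0 lower, with 0 downward at an unadjusted p under 0.05 and 0 by DESeq2. These were the release factor MTRF1L (1.79) and MRRF (1.21), the recycling partner of GFM2. Against GV 4 of the 8 fell in IVM MII and 7 in IVO MII, 50.0% and 87.5% beside 24.7% and 30.5% of all genes.

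Of 25 tested genes that process and modify mitochondrial tRNAs, 3 were higher and 2 lower in IVM MII than in IVO MII, 7 rose and 4 fell in IVM MII against GV, and 9 rose and 6 fell in IVO MII against GV. The shares between IVM MII and IVO MII, 12% and 8%, were near the 14.3% and 10.3% of all genes. Those in IVM MII against GV were 28% and 16% beside 25.6% and 24.7%. Those in IVO MII against GV were 36% and 24% beside 28.1% and 30.5%. PTRH2, a peptidyl-tRNA hydrolase, was 2.25 log2 units higher in IVM MII than in IVO MII. ALKBH1, an enzyme that oxidises methylated bases of tRNA, rose against GV in IVM MII (1.82), and the methyltransferase NSUN2 in IVO MII (2.06). Of 16 genes of mitochondrial transcription and RNA maintenance, 1 was higher and 1 lower in IVM MII than in IVO MII. Each was 6.25%, beside 14.3% and 10.3% of all genes. Against GV 6 rose and 6 fell in IVM MII (37.5% each, beside 25.6% and 24.7%). In IVO MII 7 rose and 6 fell (43.8% and 37.5%, beside 28.1% and 30.5%). Of 22 cytosolic or dual synthetases and their scaffold genes, 3 were higher and 1, the cytosolic tryptophan enzyme WARS, was lower in IVM MII than in IVO MII (-2.15), the opposite sign to mitochondrial WARS2. The shares of these 22 were 13.6% and 4.55%, beside 14.3% and 10.3% of all genes. Against GV 4 rose and 8 fell in IVM MII (18.2% and 36.4%, beside 25.6% and 24.7%). In IVO MII 5 rose and 9 fell (22.7% and 40.9%, beside 28.1% and 30.5%). KARS, which serves both compartments, fell in both MII groups (-3.05 in IVM MII and -3.11 in IVO MII). Of the other MTERF genes, MTERF1 and MTERF3 were tested and neither differed by the test between IVM MII and IVO MII (0 by DESeq2, and 0 at an unadjusted p under 0.05). Against GV 1 of the 2 fell in IVM MII (-1.74) and the other did not pass (0.47). In IVO MII 1 rose (0.71) and 1 fell (-1.39), in a comparison where 28.1% of all genes rose and 30.5% fell.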

How the data were processed

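The deposited table holds raw counts per gene, which the authors made, per the file headers, with featureCounts 2.0.1 in paired mode, adding up the exons of each gene with strand ignored, against RefSeq gene models for macFas5; the exon length column is from the same file. Per the submitters' processing notes, fastp, FastQC, Bowtie2 and SAMtools were used before it. Per the labels' protocols, cDNA was primed on the poly(A) tail, template-switched, amplified and tagmented; no molecular identifiers are named, so floors (3 counts per library, 0.0694 to 0.116 CPM) cover counting error only.

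From the counts, edgeR 4.0.16 in R 4.3.3 kept 15815 genes by filterByExpr (12349 left out), computed TMM factors (0.902 to 1.22) and fitted a robust quasi-likelihood model to all 6 libraries with groups as terms. Replicates varied by 0.232 (common biological coefficient of variation); the fit left 3 residual degrees of freedom, to which the prior added 8.81 at the median. Tests were two-sided, and Benjamini-Hochberg adjustment ran over all genes of a comparison at 0.05. Fold values are ratios of mean CPM. The procedure was tested on simulated data. Members, lists and comparisons were chosen with earlier results of these data known. Every member could be named; per-library values were given for all members called between IVM MII and IVO MII, and otherwise for up to 6 members per set and direction by adjusted p, and up to 2 genes per direction of each other list. Library numbers are not stated to pair oocytes; same-numbered deviations correlated at -0.144, 0.178 and -0.114. Alternatives were DESeq2 1.42.0, scaling by RLE or by library totals, every gene kept, a fit on just the 4 libraries compared, a replicate block, removal of the trend with exon length, and each library left out, where a lone library is assumed to vary like the others. Sequences were not used here, and 1 member that is included in the counts is not reported here by itself. Figures were drawn with matplotlib 3.10.9.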

Additional observations from a re-analysis of the deposited data

Results flagged for a closer look

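For 4 members the 2 MII groups had calls of opposite sign against GV, and the test of the difference itself, IVM MII over IVO MII, also passed. The log2 fold changes of IVM MII over IVO MII were 4.35 for MTERF4, -4.63 for GATB, 1.96 for MRPS36 and 2.02 for MRPS28. The difference between IVM MII and IVO MII kept its call for all 4 in each of the 13 alternatives run, whereas the fall of MRPS28 in IVO MII against GV and both calls of MRPS36 against GV did not.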

How the results depend on the processing

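The 53 tested members had 93 called values over the 3 comparisons. Over 13 alternatives each, 1149 of 1209 values kept direction and call, 58 lost the call in the same direction, and 2 lost it with a change of sign. Of 858 values of uncalled comparisons, 31 gained a call in the same direction, 1 gained one in the other, and 72 changed sign. Both losses with a change of sign came with the exon length trend removed, in IVO MII against GV. They were MRPS28 (0.21, adjusted p = 0.407) and MRPS23 (0.057, adjusted p = 0.832). The call gained in the other direction came from the same run and comparison, for MRPS14 (0.83, adjusted p = 0.00673). Small subunit genes lower in IVM MII than in IVO MII numbered 1 with no low-count filter, with the length trend removed and by DESeq2, in place of 0, and 0 to 1 with a library left out. Those higher in IVM MII than in GV numbered 6 with library totals or the length trend removed, in place of 2, and 1 to 2 with a library left out. Those higher in IVO MII than in GV numbered 2 with the length trend removed, in place of 0. Charging and factor genes lower in IVM MII than in GV numbered 8 with library totals in place of 12, and 6 to 12 with a library left out. Over all genes, those higher and lower in IVM MII than in IVO MII numbered 2260 and 1635, 1327 to 2096 and 753 to 1496 with a library left out, 2803 and 894 with library totals, 2076 and 1945 with RLE factors, 1979 and 2076 with the length trend removed and 2100 and 2136 by DESeq2; those higher in IVM MII than in GV numbered 2580 to 4452 with a library left out, in place of 4053. With the replicate block, 11 small subunit genes were higher in IVM MII than in IVO MII in place of 10, MRPS18B being added, and all 93 calls were kept; the replicate numbers are not known to pair the libraries. Members under 1 CPM, such as CARS2, SARS2 and MRPS30, rest on few counts, which limits their precision. The cause of these dependences was not tested.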
